A study of Schizosaccharomyces pombe with 12 samples.

Results

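The genes at the ends of chromosome I of the fission yeast Schizosaccharomyces pombe were followed by sequencing cosmid, the stretch of cloned DNA whose name forms the first part of each systematic gene identifier. Members were the genes whose identifiers begin with SPAC212, SPAC977, SPAC1F8, SPAC11D3, SPAC5H10, SPAC922, SPAC869, SPAC186 or SPAC750. The 102 genes with these 9 prefixes were reduced to 98 members of the 6936 genes in the deposited tables. The 4 genes left out by name were pfl8, pfl9, yhb1 and tlh1, and genes named mug or meu with a number were to be left out as well. All 98 members matched a gene of the reference annotation. In its gene order, 66 members lie at the left end, from SPAC212 (10 members, outermost) through SPAC977 (18), SPAC1F8 (7) and SPAC11D3 (18) to SPAC5H10 (13, innermost). The other 32 lie at the right end, from SPAC922 (6, innermost) through SPAC869 (10) and SPAC186 (8) to SPAC750 (8, outermost). The order numbers of the members run up to 165 at the left end and upward from 5486 at the right end, of 5584 genes annotated on the chromosome, which bears out their label as end genes.

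Polyadenylated RNA was sequenced from cells growing exponentially in YES rich medium at 30 °C, in 4 groups of 3 libraries. The ntu1_KO group is h+ with the alleles ade6-M216, ura4-D18 and leu1-32, and in it ntu1 is replaced by a drug resistance cassette (ntu1D::kanMX). The ntu2_KO group has the same mating type and alleles, with ntu2 replaced (ntu2D::kanMX) in place of ntu1. The wt_WT group is h- leu1-32 ura4-D18 ade6-704, and the ntu_WT group is h+ leu1-32 ura4-D18 ade6-M210. The leu1-32 and ura4-D18 alleles are shared by all groups, neither wild type carries the ade6-M216 allele of the knockouts, and both wild types bear the same strain name although their genotypes differ. Each knockout is given as 1 strain, so the deletion, the ade6 allele and the history of that strain cannot be told apart. Nothing in the labels says that the 3 libraries of a group came from separate cultures, and p-values therefore measure the spread between these libraries, which may be technical.

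Telomere-proximal DNA of fission yeast is packed into heterochromatin, in which the histone methyltransferase Clr4 marks histone H3 and proteins such as Swi6 bind the mark. Genes placed near the ends are often poorly transcribed in growing cells, and many code for transporters, cell surface proteins and metabolic enzymes that serve growth on particular nutrients. The outermost regions of chromosomes I and II carry near-identical blocks, so that a short read from such a block may come from several genes.

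Library totals ranged from 3177147 to 11782294 estimated counts. The smallest was replicate 1 of ntu2_KO and the 3 largest were those of wt_WT. The gene ntu1 had 3.49 to 4.59 transcripts per 1e+06 transcripts (TPM) in ntu1_KO and 30.9 to 41 TPM in the other libraries. The gene ntu2 had 12.9 to 18.5 TPM in ntu2_KO and 67.5 to 85.2 TPM in the other libraries. The mating-type gene mat1-Mc, a marker of h- cells, had 104 to 118 TPM in wt_WT and 0 to 3.18 TPM elsewhere, and mat2-Pc, a marker of h+ cells, was at 0 in wt_WT and at 23.2 to 70.9 TPM elsewhere. Each deleted gene was therefore lowest in its own knockout but not at 0, and the source of its remaining reads was not examined. The mating-type markers matched the labels.

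Levels along the chromosome ends differed between cosmids. Of the 98 members, 26 (26.5%) had a mean below 1 TPM over the 12 libraries, against 783 of the 6936 genes of the table (11.3%). The shares below 1 TPM were 62.5% in SPAC186, 60% in SPAC869, 50% in SPAC750, 50% in SPAC212 and 27.8% in SPAC977. By contrast, 7.69% of SPAC5H10 and 0% of SPAC1F8, SPAC11D3 and SPAC922 lay below that level. The median member of SPAC186 had a mean of 0.426 TPM, that of SPAC869 had 0.624 TPM and that of SPAC212 had 0.863 TPM, while the median member of SPAC5H10 had 27.1 TPM. Group medians of some cosmids were also far apart. The median member of SPAC869 had 0.617 TPM in ntu1_KO, 0.209 TPM in ntu2_KO, 0.0679 TPM in wt_WT and 1.57 TPM in ntu_WT. In SPAC750 the median member had 1.59 TPM in ntu1_KO, 0.361 TPM in ntu2_KO, 2.16 TPM in wt_WT and 0.297 TPM in ntu_WT. Both contrasts rest on members at few counts. The wt_WT median of SPAC869 lies between SPAC869.03c, with 3 counts in that group, and SPAC869.09, with 1 count. Most members of SPAC750 have repeated sequence, so their levels also depend on how reads were divided. These levels are per transcript length, and a low value in a culture can mean few transcribing cells or little RNA in each cell, which cannot be told apart here.

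**Figure D1:**
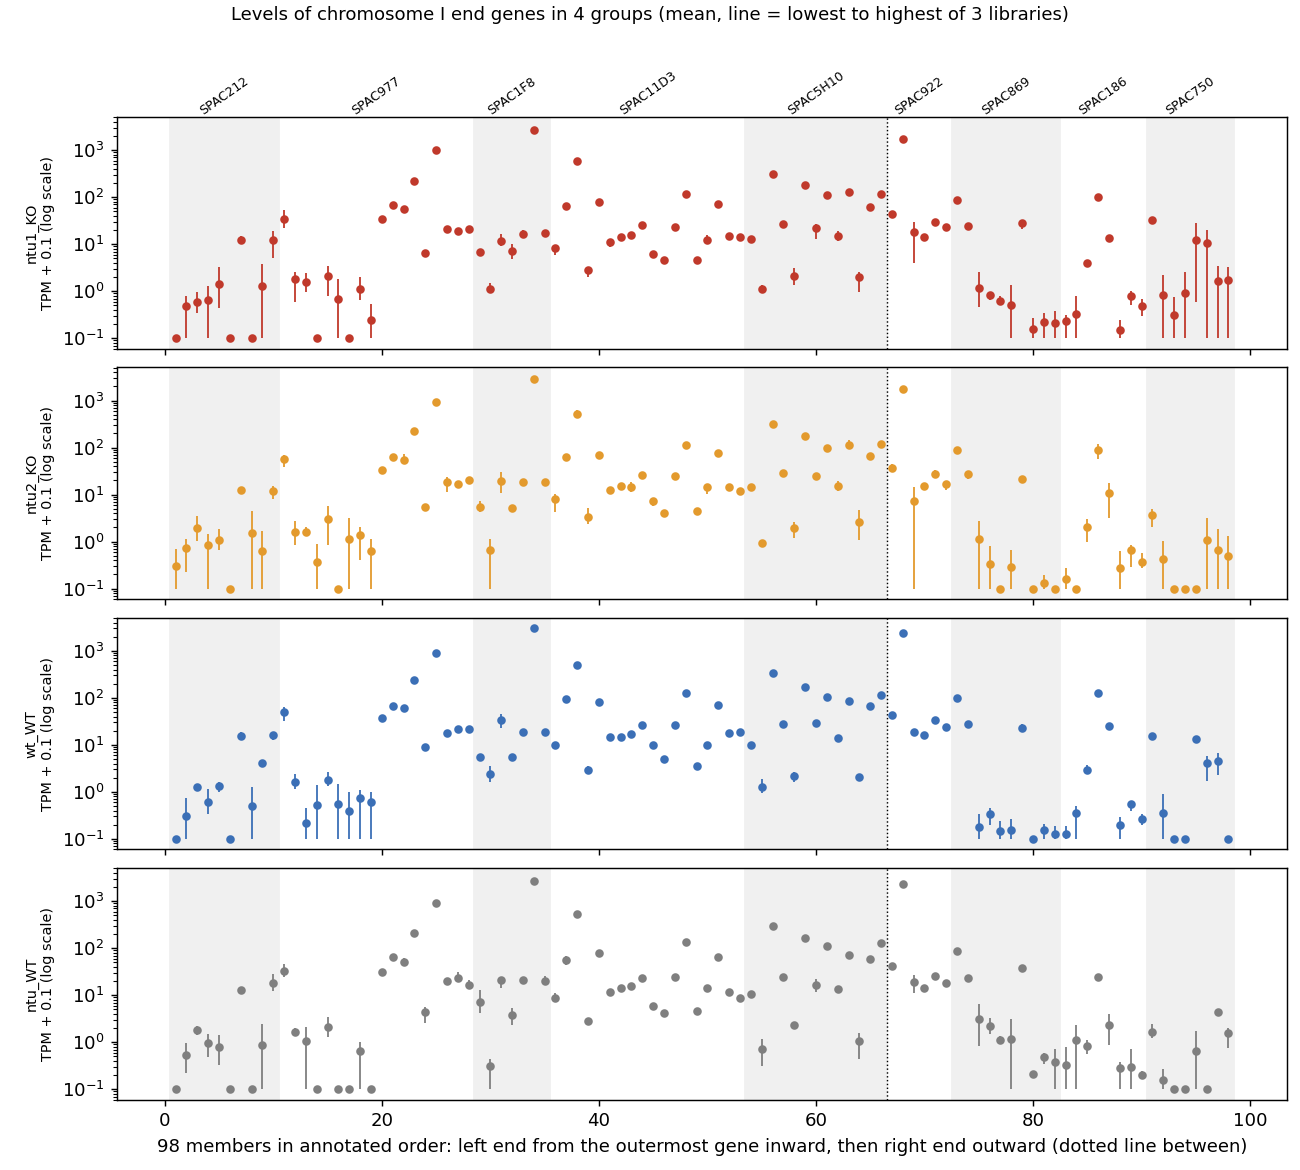
Mean TPM of the 98 members (points, with lines from the lowest to the highest of 3 libraries) in annotated gene order, on a log axis after adding 0.1, in ntu1_KO, ntu2_KO, wt_WT and ntu_WT from top to bottom. The outer cosmids SPAC212, SPAC186 and SPAC750 hold many members near the floor in each group, while SPAC11D3, SPAC5H10 and SPAC922 lie mostly above 1 TPM.

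Several enzyme genes were among the more abundant members. The highest means over the 12 libraries after pdc101 were those of the uncharacterized SPAC922.04 (2031 TPM) and the aldo-keto reductase family gene SPAC977.14c (937.5 TPM). The acetyltransferase gene SPAC11D3.02c, which an annotated non-coding RNA overlaps in full, followed at 535 TPM. The left-end gene pdc101, a putative pyruvate decarboxylase of the enzyme class that turns pyruvate into acetaldehyde in alcoholic fermentation, had 2717 ± 37.0 TPM in ntu1_KO, 2804 ± 217 TPM in ntu2_KO, 3034 ± 115 TPM in wt_WT and 2682 ± 163 TPM in ntu_WT (SD, n = 3 each). The right-end copy of this enzyme class, pdc102 in SPAC186, had no library above 0.582 TPM. Both genes carry no 31-base stretch that occurs elsewhere in the reference genome, so reads need not be divided between them. An annotated non-coding RNA overlaps 100% of the sequence of pdc102, and others overlap 16.8% and 15.0% of pdc101. Reads of these RNAs cannot be told apart here without knowing the strand setting. In SPAC5H10, the alcohol dehydrogenase adh4 had 153 to 195 TPM. SPAC5H10.03, which the annotation places by family label only (phosphoglycerate mutase/6-phosphofructo-2-kinase family), averaged 320 TPM over the 12 libraries. In SPAC977, the L-asparaginase SPAC977.12, an enzyme that splits asparagine into aspartate and ammonia, averaged 224 TPM. Of its 31-base sequences 75.3% occur elsewhere, among them in SPBPB8B6.05c, so its level depends on how reads were divided.

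Members with repeated sequence were mostly low and seldom tested. Of the 98 members, 29 had more than 50% of their 31-base sequences elsewhere in the reference genome, 5 had a smaller share and 64 had none. The 29 repeated members had a median of 1.01 TPM, and 8 of them passed the low-count filter of the fit of 9 libraries. The 64 members without repeated sequence had a median of 14.7 TPM, and 49 passed. Of the 29, 21 lie at the left end and 8 at the right end. Of all members, 62 passed in the fit of the knockouts and ntu_WT, 65 passed in the fit of all 12 libraries, and 33 were tested in neither. SPAC212.05c, a pseudogene, had 0 counts in every library.

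Each comparison was tested with edgeR on all genes, and a call required both an adjusted p under 0.05 and a 2-fold change or more. In ntu1_KO against ntu_WT, 3 of the 62 tested members were called higher, while 0.0861% of all 5808 tested genes were called higher. In the other direction, 0 were called lower, against 0.138% of all genes. In ntu2_KO against ntu_WT, 1 member was called higher (0.0517% of all genes) and 0 lower (0.103% of all genes). In ntu1_KO against ntu2_KO, 1 member was called higher (0.0344% of all genes) and 0 lower (0.0689% of all genes). Between the wild types, wt_WT against ntu_WT, 5 of the 65 tested members were called higher (0.627% of all 5899 genes) and 0 lower (0.407% of all genes). In ntu1_KO against wt_WT, 1 member was called higher (0.322% of all genes) and 0 lower (0.678% of all genes). In ntu2_KO against wt_WT, 0 members were called higher (0.17% of all genes) and 1 lower (0.254% of all genes). Where edgeR called 0 members, some passed an unadjusted p under 0.05. Lower members at that level numbered 5 in ntu1_KO and 5 in ntu2_KO against ntu_WT, 1 in ntu1_KO against ntu2_KO, 5 in wt_WT against ntu_WT and 7 in ntu1_KO against wt_WT, and 4 higher members reached it in ntu2_KO against wt_WT. DESeq2 called 0 in these directions as well, except for 1 lower member in ntu1_KO against wt_WT, and limma on log2(TPM + 1) called 0. How many of all tested genes passed an unadjusted p under 0.05 was not counted. Numbers at that level, here and for the cosmids and gene lists below, therefore show neither an excess nor a lack.

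The calls fell on 5 genes. SPAC186.04c, gdt1 and SPAC186.06 in SPAC186 and SPAC750.01 in SPAC750 lie at the right end, and SPAC11D3.18c lies at the left end. The median log2 fold change of the tested members was 0.05 in ntu1_KO against ntu_WT, 0.05 in ntu2_KO against ntu_WT, 0.02 in ntu1_KO against ntu2_KO, 0.11 in wt_WT against ntu_WT, -0.03 in ntu1_KO against wt_WT and -0.08 in ntu2_KO against wt_WT. The median over all tested genes was 0 in each. Comparisons that share ntu_WT or wt_WT use the same control libraries, so calls that recur between them are not separate evidence.

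**Figure D2:**
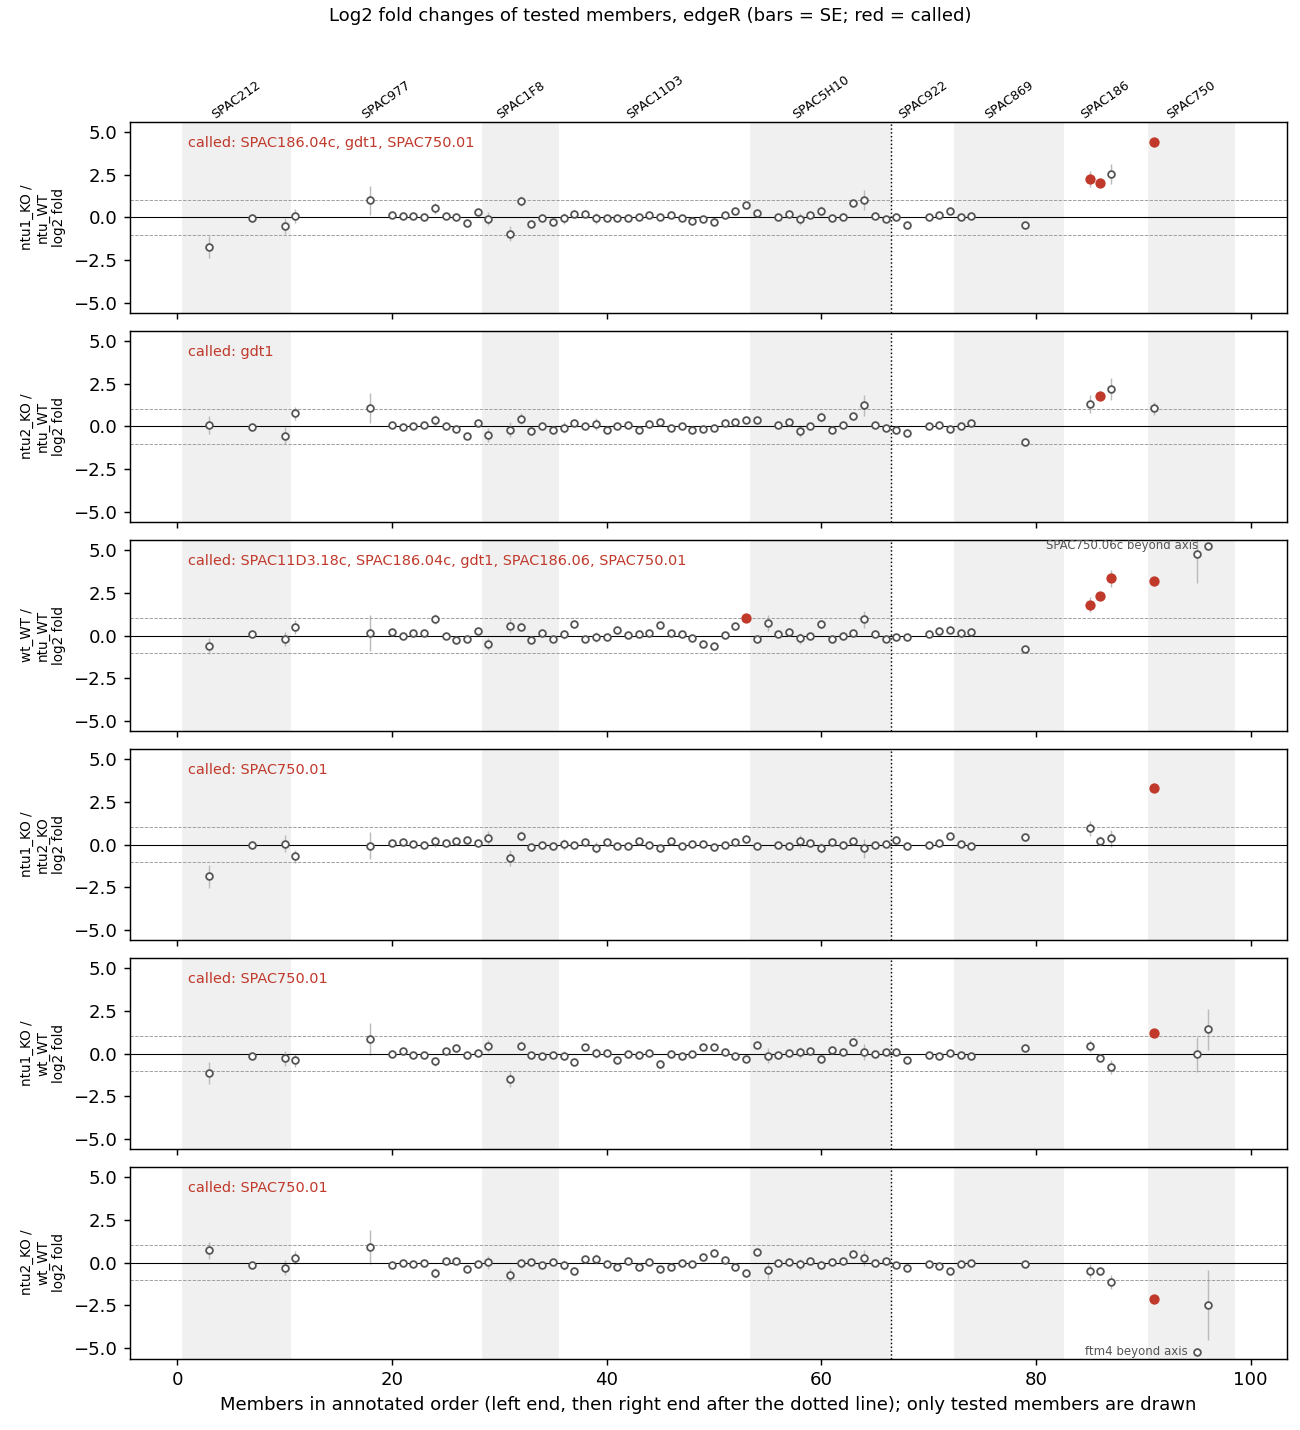
Log2 fold changes (y axis, with SE) of the tested members in annotated order (x axis) in each of the 6 comparisons, first group over second. Red points were called by edgeR, dashed lines mark a 2-fold change, and points past the axis are drawn at its edge with their name. The called members at the right are those of SPAC186 and SPAC750, and most other members lie near 0.

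In SPAC186, 3 neighbouring members that carry no repeated sequence had higher means in ntu1_KO, ntu2_KO and wt_WT than in ntu_WT. The first, gdt1, belongs to a family of membrane proteins that in budding yeast move calcium and manganese ions. Its levels were 83.4, 108 and 108 TPM in ntu1_KO, 121, 56.1 and 89.3 TPM in ntu2_KO, 132, 123 and 129 TPM in wt_WT and 26.2, 24.9 and 22.3 TPM in ntu_WT. No library of the knockouts or of wt_WT overlapped with ntu_WT. With edgeR, gdt1 rose by a log2 fold change of 2.03 ± 0.27 (SE, adjusted p = 0.0219) in ntu1_KO against ntu_WT, by 1.80 ± 0.28 (adjusted p = 0.0431) in ntu2_KO against ntu_WT and by 2.29 ± 0.24 (adjusted p = 0.000466) in wt_WT against ntu_WT. Against wt_WT the knockouts did not pass, with -0.26 (adjusted p = 0.513) in ntu1_KO and -0.50 (adjusted p = 0.279) in ntu2_KO. Both knockout calls against ntu_WT are near the threshold. The ntu1_KO call was lost in 5 of 6 fits that left out 1 library, and the ntu2_KO call in 4 of 6. In these fits the log2 fold change was 1.96 to 2.13 in ntu1_KO and 1.56 to 2.06 in ntu2_KO. The exceptions in ntu2_KO were the fits without its replicate 1 (adjusted p = 0.0132) and without its replicate 2 (adjusted p = 4.43e-07), the library at 56.1 TPM.

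The neighbour SPAC186.06, annotated as an isomerase, had 12.7, 15.1 and 13.1 TPM in ntu1_KO, 10.97, 3.09 and 17.7 TPM in ntu2_KO, 23.5, 23.1 and 28.2 TPM in wt_WT and 0.78, 1.80 and 3.94 TPM in ntu_WT. Each ntu1_KO and wt_WT library lay above each ntu_WT library, while replicate 2 of ntu2_KO lay within the ntu_WT range. This gene rose in wt_WT against ntu_WT by 3.34 ± 0.51 on the log2 scale (SE, edgeR adjusted p = 0.00146). The log2 fold changes were 2.55 ± 0.60 in ntu1_KO (adjusted p = 0.129) and 2.19 ± 0.63 in ntu2_KO (adjusted p = 0.219) against ntu_WT, neither called. DESeq2 called SPAC186.06 in both, with adjusted p = 0.000908 in ntu1_KO and 0.0133 in ntu2_KO. Without replicate 2 of ntu2_KO, edgeR gave 2.68 (adjusted p = 0.00725) for ntu2_KO against ntu_WT.

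The third, SPAC186.04c, has an uncharacterized product and low levels. It had 3.53, 3.71 and 4.21 TPM in ntu1_KO, 2.16, 0.901 and 2.87 TPM in ntu2_KO, 2.62, 2.37 and 3.57 TPM in wt_WT and 0.451, 1.04 and 0.706 TPM in ntu_WT. The ntu1_KO and wt_WT libraries were above those of ntu_WT, and replicate 2 of ntu2_KO again overlapped with them. SPAC186.04c rose by 2.26 ± 0.48 on the log2 scale in ntu1_KO (SE, edgeR adjusted p = 0.0339) and by 1.80 ± 0.45 in wt_WT (adjusted p = 0.0166) against ntu_WT, on 51 counts in ntu1_KO, 73 in wt_WT and 12 in ntu_WT. Its log2 fold change in ntu2_KO against ntu_WT was 1.31 (adjusted p = 0.46). The ntu1_KO call was lost in all 6 fits that left out 1 library, where adjusted p ranged from 0.0859 to 0.196 at log2 fold changes of 2.04 to 2.58, and under limma on TPM. The wt_WT call was lost in 3 of 6 such fits, with adjusted p up to 0.0804.

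The other members of SPAC186 stayed at the floor. The hydroxyacid dehydrogenases SPAC186.02c and SPAC186.07c, the lactate dehydrogenase SPAC186.08c and pdc102 had no library above 0.912 TPM in any group. SPAC186.03, an L-asparaginase with 65.8% of its 31-base sequences elsewhere, had at most 0.695 TPM in ntu1_KO, 0 in every ntu2_KO library, at most 0.413 TPM in wt_WT and 2.27, 0.779 and 0 TPM in ntu_WT. The called genes therefore sit among other members of the cosmid that were hardly detected in any group. The gene pfl9 of the same cosmid was left out by name. The level of SPAC186.03 depends on how reads were divided with SPBPB21E7.09.

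SPAC750.01, an aldo/keto reductase family gene and the innermost member of SPAC750, gave the largest called changes. It had 33.6, 29.8 and 36.9 TPM in ntu1_KO, 4.90, 1.93 and 3.65 TPM in ntu2_KO, 17.0, 13.7 and 14.8 TPM in wt_WT and 2.38, 1.16 and 1.18 TPM in ntu_WT. The ranges of ntu1_KO and wt_WT did not overlap with each other or with the rest, while those of ntu2_KO and ntu_WT overlapped. With edgeR, SPAC750.01 rose in ntu1_KO by 4.38 ± 0.28 on the log2 scale against ntu_WT (SE, adjusted p = 4.33e-08), by 3.33 ± 0.27 against ntu2_KO (adjusted p = 1.94e-06) and by 1.19 ± 0.18 against wt_WT (adjusted p = 0.000339). It rose in wt_WT against ntu_WT by 3.20 ± 0.26 (adjusted p = 7.86e-08). It fell in ntu2_KO against wt_WT, with a log2 fold change of -2.15 ± 0.24 (adjusted p = 1.98e-05). Against ntu_WT, ntu2_KO had 1.05 ± 0.37 (adjusted p = 0.318), which did not pass. All these calls held in each fit without 1 library, and the call against wt_WT in ntu1_KO was lost under limma on log2(TPM + 0.1).

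SPAC750.01 has a partial copy. Of its 31-base sequences, 37.6% also occur in SPAC977.14c, an aldo-keto reductase family gene at the left end, and 62.4% occur nowhere else. SPAC977.14c had 921.6, 1068 and 971 TPM in ntu1_KO, 946, 1005 and 899 TPM in ntu2_KO, 940, 914 and 894 TPM in wt_WT and 880, 916 and 896 TPM in ntu_WT, and it was called in no comparison. Summed over both genes, the level was 1020 ± 71.9 TPM in ntu1_KO, 954 ± 52.5 TPM in ntu2_KO, 931 ± 24.3 TPM in wt_WT and 899 ± 17.3 TPM in ntu_WT (SD, n = 3 each). SPAC977.14c makes up nearly all of this sum, which therefore cannot show a change of SPAC750.01. An annotated non-coding RNA, SPNCRNA.4500, also overlaps SPAC750.01, and the sources used here do not give the strand setting of the counting.

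**Figure D3:**
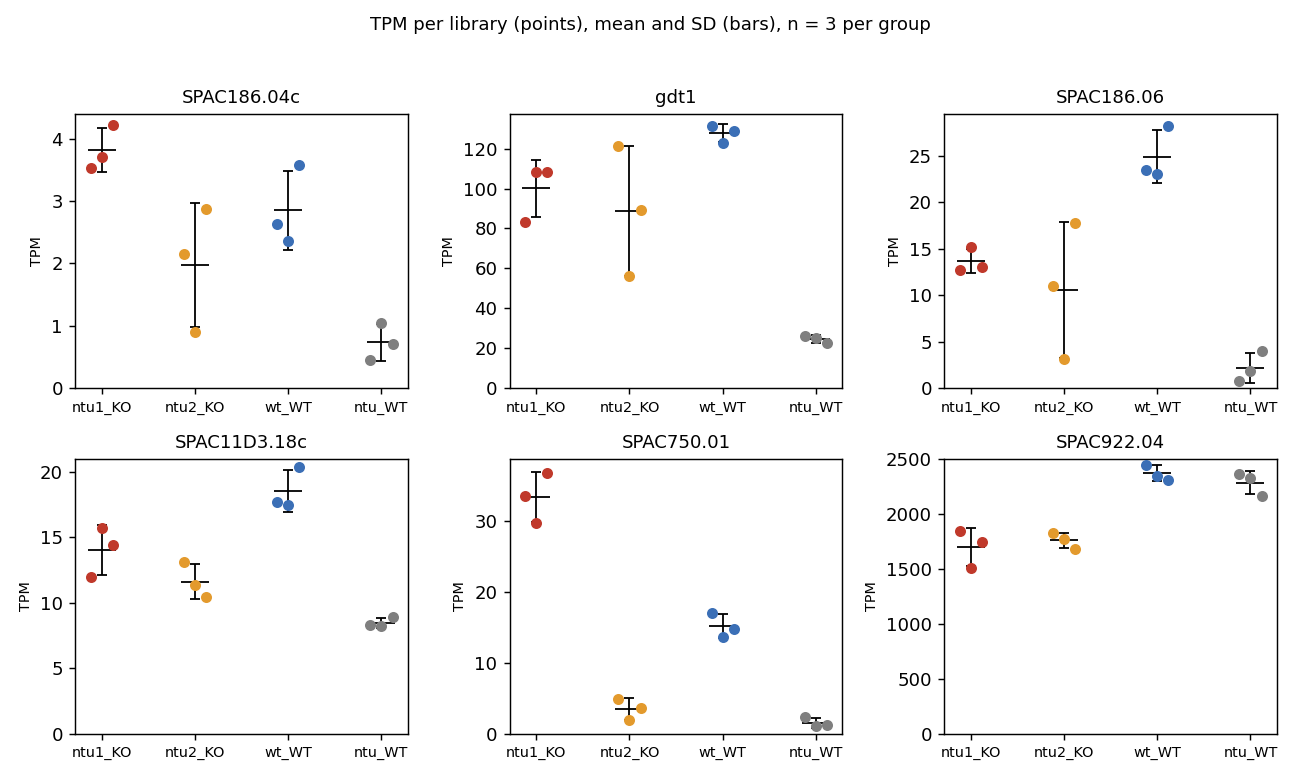
TPM (y axis, from 0) of the 5 called members and of SPAC922.04 in each library (points), with group means and SD (bars), for ntu1_KO, ntu2_KO, wt_WT and ntu_WT from left to right. The ntu_WT libraries are lowest in gdt1 and SPAC11D3.18c, and both knockouts lie below both wild types in SPAC922.04.

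At the outermost right end, the other 7 members of SPAC750 have 90% or more of their sequence elsewhere. The gene ftm4, which encodes a protein with transmembrane helices, had 28.8, 0.504 and 7.58 TPM in ntu1_KO, 0 in every ntu2_KO library, 11.98, 13.1 and 15.6 TPM in wt_WT and 1.61, 0 and 0 TPM in ntu_WT. The 3 libraries of ntu1_KO span nearly the whole range seen, while those of wt_WT are close together. Over the group sums, ntu2_KO (0 counts) was at least 48.1-fold lower than wt_WT (339 counts), and ntu1_KO (156 counts) was at least 43.6-fold higher than ntu2_KO, both against a floor of 3 counts per group. With edgeR, ftm4 passed in no comparison that tested it, with adjusted p = 0.204 in ntu2_KO against wt_WT and 0.151 in wt_WT against ntu_WT. DESeq2 called it lower in ntu2_KO against wt_WT (adjusted p = 0.0089), as did the limma fits on TPM and the edgeR fit of only these groups (adjusted p = 2.02e-05). In wt_WT against ntu_WT, ftm4 was called higher by the 3 limma fits (adjusted p = 0.0264 to 0.0427) and by edgeR on only these groups, with 4.75 on the log2 scale (adjusted p = 0.000362).

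The values of ftm4 rest on how reads were divided among copies. Of its 31-base sequences, 86.8% occur in ftm1 of SPAC977 and 93.0% in ftm5 (SPBC1348.02) on chromosome II. The left-end copy ftm1 had 52.4, 28.6 and 22.4 TPM in ntu1_KO, 69.1, 62.6 and 38.1 TPM in ntu2_KO, 52.4, 63.9 and 32.3 TPM in wt_WT and 47.1, 24.2 and 28.8 TPM in ntu_WT. Summed with ftm5 and SPBPB2B2.19c, which was at 0 in every library, the family had 139 ± 47.2 TPM in ntu1_KO, 151 ± 27.8 TPM in ntu2_KO, 200.1 ± 9.70 TPM in wt_WT and 109 ± 19.8 TPM in ntu_WT (SD, n = 3 each). For the sum, the log2 fold change in ntu2_KO against wt_WT was -0.40 (edgeR adjusted p = 0.367). Since ftm4 gave 13.55 of the 200.1 TPM in wt_WT, its absence could move the sum only slightly. In wt_WT against ntu_WT the summed family had 0.79 (adjusted p = 0.045).

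**Figure D4:**
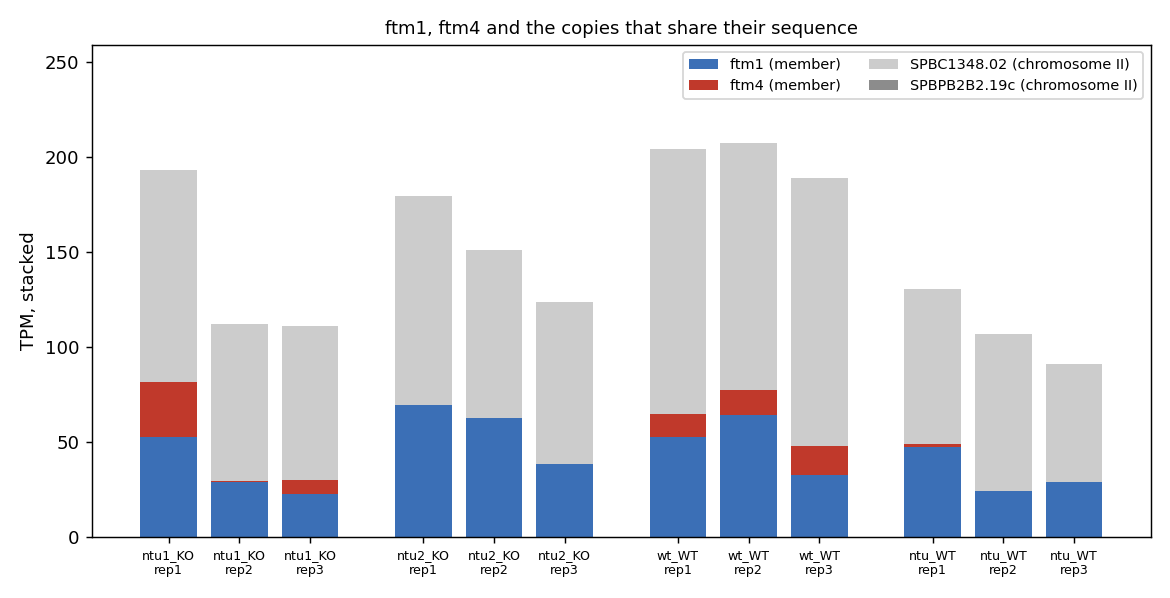
TPM of ftm1 and ftm4 (members) and of the chromosome II genes SPBC1348.02 and SPBPB2B2.19c that share their sequence, stacked from 0 for each library, with ntu1_KO, ntu2_KO, wt_WT and ntu_WT from left to right. The red portion, ftm4, is absent in ntu2_KO, whose stacks of 124 to 179 TPM lie within the range of the other libraries (91.1 to 207 TPM).

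SPAC750.06c, an uncharacterized gene with 93.5% of its sequence elsewhere, had 20.1, 0 and 11.99 TPM in ntu1_KO, 3.001, 0 and 0 TPM in ntu2_KO, 5.66, 1.61 and 4.93 TPM in wt_WT and 0 in every ntu_WT library. Its ntu1_KO libraries include both a 0 and the highest value, so the groups overlap except for wt_WT and ntu_WT. On group sums it was at least 34-fold higher in ntu1_KO (89 counts) and at least 13.8-fold higher in wt_WT (71 counts) than in ntu_WT (0 counts). For SPAC750.06c these bounds, and the 0 in ntu_WT, depend on how reads were divided among copies. Its counts in ntu1_KO were 60, 0 and 29. Its family of 6 genes, which includes SPAC212.01c and SPAC212.04c, had 66.5 ± 10.4 TPM in ntu1_KO, 69.3 ± 4.25 TPM in ntu2_KO, 87.1 ± 3.78 TPM in wt_WT and 81.4 ± 6.30 TPM in ntu_WT (SD, n = 3 each). The summed level was thus not highest where SPAC750.06c was. The remaining repeated members of SPAC750, SPAC750.02c, SPAC750.03c, ftm3, SPAC750.07c and the malic enzyme gene SPAC750.08c, had no library above 6.49 TPM. SPAC750.08c, not tested in the main fits, had 17 counts in ntu1_KO, 4 in ntu2_KO, 0 in wt_WT and 15 in ntu_WT. On group sums wt_WT was at least 8.58-fold lower than ntu_WT, and ntu1_KO at least 11.2-fold higher than wt_WT. With no low-count filter, edgeR called both differences (adjusted p = 0.0324 and 0.0281). Of its sequence 100% also occurs in SPBCPT2R1.07c, at 0.416 to 1.173 TPM in wt_WT and 0 in the other groups. These calls therefore depend on how reads were divided.

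SPAC869 held genes that stood lower, rather than higher, than in ntu_WT, at counts too small for the main filter. Of its transporters, cat1, which carries arginine and lysine, had 77.6 to 98.1 TPM over all libraries, and put4, a proline transporter, had 21.3 to 29.9 TPM. An annotated non-coding RNA overlaps 80.5% of the sequence of cat1, 81.9% of put4, 83.5% of mel1 and 77.9% of pcm2. For SPAC869.09 and sul2 the overlap with 1 such RNA is 81.1% and 48.9%. Reads of these RNAs cannot be told apart here without knowing the strand setting. The melibiase gene mel1, whose product releases galactose from melibiose, had 0.427, 0.435 and 0.689 TPM in ntu1_KO, 0 in every ntu2_KO library, 0, 0 and 0.139 TPM in wt_WT and 1.26, 0.856 and 0.868 TPM in ntu_WT. All ntu_WT libraries were above all others. Group sums were 11 counts in ntu1_KO, 0 in ntu2_KO, 2 in wt_WT and 25 in ntu_WT, and ntu2_KO was at least 6.09-fold lower than ntu_WT.

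The protein repair methyltransferase gene pcm2 had 0.730, 0.549 and 0.871 TPM in ntu1_KO, 0, 0.696 and 0 TPM in ntu2_KO, 0.284, 0.0950 and 0.364 TPM in wt_WT and 3.18, 1.65 and 1.41 TPM in ntu_WT, again with ntu_WT above every other library. Neither gene was tested in the main fits. With no low-count filter, edgeR called mel1 lower in ntu2_KO against ntu_WT (adjusted p = 0.0392), and in wt_WT against ntu_WT it called mel1 (adjusted p = 0.00481), pcm2 (adjusted p = 0.00557) and the Con-6 family gene SPAC869.09 (adjusted p = 0.0193) lower. The remaining low members of this cosmid, hry1, SPAC869.01, SPAC869.03c and SPAC869.04, had group sums of 13 counts or fewer, with ntu_WT the highest in each.

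The sulfate transporter gene sul2 of SPAC869 was tested. It had 20.5, 29.7 and 33.0 TPM in ntu1_KO, 25.3, 20.2 and 18.3 TPM in ntu2_KO, 22.1, 18.5 and 28.2 TPM in wt_WT and 40.3, 36.0 and 36.4 TPM in ntu_WT, so that ntu_WT lay above each other group. Its log2 fold changes against ntu_WT were -0.45 (edgeR adjusted p = 0.518) in ntu1_KO, -0.88 ± 0.16 (adjusted p = 0.032) in ntu2_KO and -0.80 ± 0.18 (adjusted p = 0.0248) in wt_WT. The last 2 values passed the p threshold and missed the 2-fold minimum, and each kept its p in 1 of 6 fits without 1 library. The means of sul2, mel1 and pcm2 were thus lower than in ntu_WT in each of the other 3 groups, while those of gdt1, SPAC186.04c and SPAC186.06 in the next cosmid were higher.

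**Figure D5:**
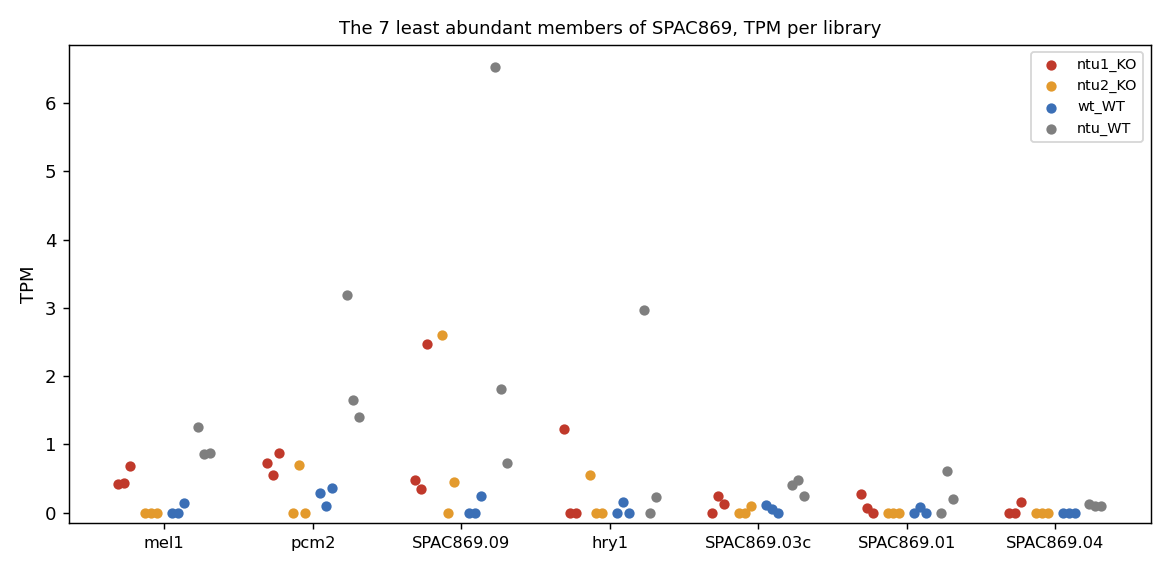
TPM (y axis) in each library of the 7 least abundant members of SPAC869, coloured by group in the order ntu1_KO, ntu2_KO, wt_WT and ntu_WT within each gene. The ntu_WT points of mel1 and pcm2 lie above all other points of the same gene, and most values of the remaining genes are near 0.

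SPAC922 held a member whose knockout libraries all lay below those of both wild types. SPAC922.04, an uncharacterized gene without repeated sequence, had 1848, 1507 and 1745 TPM in ntu1_KO, 1825, 1776 and 1683 TPM in ntu2_KO, 2453, 2352 and 2312 TPM in wt_WT and 2365, 2331 and 2171 TPM in ntu_WT. The 6 knockout libraries were all below the 6 wild-type libraries, and the wild types overlapped. With edgeR, its log2 fold change was -0.45 ± 0.07 (SE, adjusted p = 0.00156) in ntu1_KO and -0.37 ± 0.07 (adjusted p = 0.0129) in ntu2_KO against ntu_WT, and -0.37 ± 0.06 (adjusted p = 0.00086) in ntu1_KO and -0.29 ± 0.06 (adjusted p = 0.00891) in ntu2_KO against wt_WT. These changes are under 2-fold and so are not among the calls. The differences were -0.08 ± 0.07 in ntu1_KO against ntu2_KO (adjusted p = 0.856) and -0.08 ± 0.06 in wt_WT against ntu_WT (adjusted p = 0.419).

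For SPAC922.04, the p threshold held in all 6 fits without 1 library in ntu1_KO against either wild type. In ntu2_KO against ntu_WT it was lost without replicate 2 of ntu_WT or replicate 1 of ntu2_KO (adjusted p up to 0.0973), and against wt_WT without replicate 1 of wt_WT (adjusted p = 0.0651). Under limma on TPM the ntu2_KO comparison with ntu_WT did not pass, with adjusted p up to 0.105, and that of ntu1_KO with ntu_WT did not pass in the fit with no TPM filter (adjusted p = 0.0533). Of its neighbours, atd2, an aldehyde dehydrogenase gene, changed by -0.47 on the log2 scale (edgeR adjusted p = 0.0326) in ntu2_KO against wt_WT. The p of atd2 held in 2 of 6 fits without 1 library (adjusted p up to 0.163). It was lost under each limma fit on TPM and with only these groups in the edgeR fit. SPAC922.03, SPAC922.05c and SPAC922.06 passed in no comparison. SPAC922.09 ranged from 0 to 29.4 TPM and was not tested.

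At the left end, SPAC11D3 held the 1 call. SPAC11D3.18c, a carboxylic acid transporter gene, had 11.96, 15.7 and 14.4 TPM in ntu1_KO, 13.1, 11.3 and 10.4 TPM in ntu2_KO, 17.7, 17.4 and 20.3 TPM in wt_WT and 8.32, 8.20 and 8.90 TPM in ntu_WT. The ntu_WT libraries were the lowest and the wt_WT libraries the highest, with the knockouts between them and no overlap with either. SPAC11D3.18c rose in wt_WT against ntu_WT by 1.02 ± 0.13 on the log2 scale (SE, edgeR adjusted p = 3.99e-05), just past 2-fold, and in 3 of 6 fits without 1 library the change fell below 2-fold (down to 0.93). It had 0.70 (adjusted p = 0.0332) in ntu1_KO and 0.39 (adjusted p = 0.408) in ntu2_KO against ntu_WT, and -0.63 (adjusted p = 0.00883) in ntu2_KO against wt_WT. An annotated antisense RNA covers the whole of this gene, and its reads cannot be told apart here without knowing the strand setting.

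Other genes of SPAC11D3 differed between the wild types by less than 2-fold. They were named after their values were seen, except SPAC11D3.09. In wt_WT against ntu_WT, the agmatinase SPAC11D3.09, an enzyme that removes urea from agmatine, changed by 0.64 on the log2 scale (edgeR adjusted p = 0.0158), the Con-6 family gene SPAC11D3.01c had 0.68 (adjusted p = 0.00805) and the transcription factor gene SPAC11D3.17 had 0.56 (adjusted p = 0.00081). The neighbouring oxoprolinase genes SPAC11D3.14c and SPAC11D3.15, whose products open the ring of oxoproline, had -0.48 (adjusted p = 0.0303) and -0.63 (adjusted p = 0.0389). SPAC11D3.09 also had -0.62 (adjusted p = 0.0304) in ntu1_KO against wt_WT. It kept its p in 2 of 6 fits without 1 library between the wild types and in 0 of 6 in ntu1_KO against wt_WT (0.0639 to 0.15). How SPAC11D3.01c, SPAC11D3.14c, SPAC11D3.15 and SPAC11D3.17 fared in such fits was not examined. Annotated non-coding RNAs overlap 100% of the sequence of SPAC11D3.01c, 99.7% of SPAC11D3.14c and 93.3% of SPAC11D3.17. Their reads cannot be told apart here without knowing the strand setting. All 18 members of the cosmid were tested in each comparison, and their medians against ntu_WT were 0 in ntu1_KO, 0.04 in ntu2_KO and 0.07 in wt_WT.

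SPAC5H10, the innermost cosmid of the left end, had 0 calls in the 6 comparisons with edgeR or DESeq2, and 0 to 5 of its members passed an unadjusted p under 0.05 in one direction. SPAC5H10.10, an NADPH dehydrogenase gene, had 112, 138 and 141 TPM in ntu1_KO, 109, 94.6 and 143 TPM in ntu2_KO, 85.2, 87.6 and 84.7 TPM in wt_WT and 72.2, 71.2 and 74.1 TPM in ntu_WT. All 6 knockout libraries were above all 6 wild-type libraries. Its log2 fold changes were 0.83 ± 0.17 (edgeR adjusted p = 0.111) in ntu1_KO and 0.64 ± 0.17 (adjusted p = 0.22) in ntu2_KO against ntu_WT, and 0.66 ± 0.14 (adjusted p = 0.0289) in ntu1_KO and 0.48 ± 0.15 (adjusted p = 0.132) in ntu2_KO against wt_WT. The 1 comparison that passed the p threshold kept it in 1 of 6 fits without 1 library. The gene has an annotated antisense RNA as well. The D-glutamate cyclase gene dgc1 had 0.60 (adjusted p = 0.0432) in ntu2_KO against wt_WT, a p that was lost in all 6 fits without 1 library (0.0626 to 0.151). The galactosyltransferase gene gmh2, which acts in protein glycosylation, had -0.21 (adjusted p = 0.0151) in wt_WT against ntu_WT. The p of gmh2 held in 3 of 6 fits without 1 library and was lost under each limma fit on TPM (adjusted p up to 0.244).

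SPAC1F8 holds genes of iron and haem uptake, and edgeR called 0 of its 6 tested members, of which 0 to 2 passed an unadjusted p under 0.05 in one direction. The siderophore transporter gene str3 had 9.15, 9.31 and 16.1 TPM in ntu1_KO, 17.5, 29.8 and 10.6 TPM in ntu2_KO, 22.3, 32.5 and 45.0 TPM in wt_WT and 14.2, 24.7 and 24.8 TPM in ntu_WT. The ntu1_KO libraries lay below those of wt_WT and overlapped with the other groups. Its log2 fold change in ntu1_KO against wt_WT was -1.5 ± 0.45 (edgeR adjusted p = 0.102), and DESeq2 called it lower (adjusted p = 0.0212). The haem uptake gene shu1, too low for the main fits, had 1.43, 0.804 and 0.883 TPM in ntu1_KO, 0.659, 1.03 and 0 TPM in ntu2_KO, 2.05, 1.51 and 3.42 TPM in wt_WT and 0.349, 0 and 0.275 TPM in ntu_WT. It was called higher in wt_WT against ntu_WT with no low-count filter (edgeR adjusted p = 0.0239) and under limma on log2(TPM + 1). The gluconate transporter gene ght3, the hydrolase gene hhy1 and the spore wall gene isp3 passed in no comparison.

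In SPAC977, 11 of 18 members were tested and 0 were called in the 6 comparisons by edgeR or DESeq2, with 0 to 4 at an unadjusted p under 0.05 in one direction. The phospholipase gene plb4 had 29.1 to 38.4 TPM, the sodium ion transporter gene nhe1 had 56.5 to 71.7 TPM and the fluoride channel gene fex1 had 41.6 to 71.2 TPM over the 12 libraries. Repeated sequence makes up 100% of plb4, 74.7% of fex1 and 0% of nhe1, and the levels of plb4 and fex1 depend on how reads were divided. The ranges of the groups overlapped broadly for fex1 and nhe1. The pseudogene SPAC977.13c, without repeated sequence, had 6.86, 5.42 and 6.73 TPM in ntu1_KO, 4.75, 5.82 and 5.78 TPM in ntu2_KO, 9.16, 9.04 and 8.80 TPM in wt_WT and 5.62, 5.03 and 2.44 TPM in ntu_WT. The wt_WT libraries were the highest, and the log2 fold change in wt_WT against ntu_WT was 0.97 ± 0.27 (edgeR adjusted p = 0.03), below 2-fold. It kept that p in 1 of 6 fits without 1 library. Limma on log2(TPM + 0.1) called SPAC977.13c higher there, at 1.11 (adjusted p = 0.0269). The surface glycoprotein gene pfl6, with 97.5% of its sequence elsewhere, had 0 to 1.97 TPM.

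In SPAC212, the outermost cosmid of the left end, 3 of 10 members were tested and 0 were called in the 6 comparisons by the main edgeR fits or DESeq2, with 0 or 1 at an unadjusted p under 0.05 in one direction. SPAC212.04c had 10.97 to 18.8 TPM and SPAC212.01c had 4.94 to 27.8 TPM. The GPI-anchored protein gene SPAC212.08c had 0.240, 0.864 and 0.370 TPM in ntu1_KO, 1.17, 0.954 and 3.46 TPM in ntu2_KO, 0.992, 1.27 and 1.35 TPM in wt_WT and 1.91, 2.07 and 1.32 TPM in ntu_WT. The ntu1_KO libraries were the lowest, and its log2 fold change in ntu1_KO against ntu_WT was -1.74 (edgeR adjusted p = 0.589). More than 50% of the sequence of these 3 tested genes occurs elsewhere, so their values depend on how reads were divided. SPAC212.02, not tested in the main fits, had 8 counts in ntu1_KO, 3 in ntu2_KO, 54 in wt_WT and 7 in ntu_WT. The edgeR fit of only wt_WT and ntu_WT called it higher in wt_WT, at 2.13 on the log2 scale (adjusted p = 0.0393). Summed with its copy SPBCPT2R1.02, the mean was 4.08 TPM in wt_WT and 3.49 TPM in ntu_WT.

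By role, 44 members were enzymes, 35 had another or no known role, 14 were transporters, 3 were regulators and 2 were cell surface proteins. Roles were assigned by words of the annotated product. The gene gdt1, annotated as a GDT1-like protein, and the malic enzyme gene SPAC750.08c therefore count under other or unknown role. Of the 12 tested members sorted as transporters, 0 were called in a knockout comparison (0.0344% to 0.678% of all genes in each direction). Among them, 1, SPAC11D3.18c, was higher in wt_WT against ntu_WT (0.627% of all genes). These 12 do not include gdt1, which was called in both knockouts against ntu_WT. Of the 30 enzymes tested in the fit of 9 libraries, 1, SPAC750.01, was higher in ntu1_KO against ntu_WT and against ntu2_KO (0.0861% and 0.0344% of all genes), and 0 were called in ntu2_KO against ntu_WT. Of the 31 enzymes tested with all 12 libraries, 2, SPAC186.06 and SPAC750.01, were higher in wt_WT against ntu_WT (0.627% of all genes). There, SPAC750.01 was also higher in ntu1_KO against wt_WT (0.322% of all genes) and lower in ntu2_KO against wt_WT (0.254% of all genes). Of the members of other or unknown role, 2 of 15 were higher in ntu1_KO and 1 of 15 in ntu2_KO against ntu_WT (0.0861% and 0.0517% of all genes), and 2 of 17 in wt_WT against ntu_WT (0.627% of all genes). Those calls were of gdt1 and SPAC186.04c. The median log2 fold changes of enzymes were 0.07 in ntu1_KO and 0.04 in ntu2_KO against ntu_WT, and those of transporters were 0.03 and 0.01. No role departed as a whole from the median of 0 over all genes by more than 0.1 in these comparisons, other than the 15 tested members of other or unknown role, at 0.19 in ntu2_KO, and the 2 surface genes, at -0.37 in ntu1_KO and 0.59 in ntu2_KO.

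Genes of heterochromatin formation and telomere protection were counted as the wider pathway. All 32, among them clr4, which encodes the histone methyltransferase, swi6, which encodes a reader of its mark, and taz1, which encodes a telomere-binding protein, were tested and 0 were called in each of the 6 comparisons by edgeR or DESeq2, with 0 to 5 at an unadjusted p under 0.05 in one direction. At most 0.678% of all tested genes were called in any comparison and direction, so 0 of 32 is near the background. Their median log2 fold changes lay between -0.05 and 0.04, and single values between -0.31 and 0.32. As the most similar set, 74 genes of chromosome II end cosmids were counted in the same fits. Of the 46 tested, 0 were called higher and 1 lower in ntu1_KO against ntu_WT, and likewise 0 and 1 in ntu2_KO against ntu_WT and in ntu1_KO against ntu2_KO. In the fit of 12 libraries, 48 were tested. Of these, 1 was called higher and 1 lower in wt_WT against ntu_WT, 2 higher and 3 lower in ntu1_KO against wt_WT, and 1 higher and 2 lower in ntu2_KO against wt_WT. The shares of all genes called in each comparison and direction, given with the member counts, were between 0.0344% and 0.678%. Whether the members of chromosome I differ from these was not tested.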

How the data were processed

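The 12 libraries were grouped by their titles. The authors deposited 2 tables over the same 6936 genes, 1 of estimated counts and 1 of TPM (transcripts per 1e+06 transcripts, relative to transcript length). The submitters' processing notes name Salmon 1.9.0 and the build ASM294v2, without their roles. The reference used here is another assembly, ASM294v3, so it served for names, products, gene order and shared sequence only, and no coordinates or sequences are printed. Shared sequence is the percentage of a gene's 31-base sequences that occur in other, non-overlapping places. The sources used here do not give the strand setting of the counting.

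Estimated counts were rounded, and this moved library totals by at most 0.00271%. The main test was edgeR 4.0.16 in R 4.3.3 (robust glmQLFit and glmQLFTest, TMM, filterByExpr at a minimum count of 10), with 1 fit of the 9 libraries of ntu1_KO, ntu2_KO and ntu_WT (5808 genes) and 1 of all 12 libraries (5899 genes) for comparisons with wt_WT. P-values were adjusted by Benjamini-Hochberg over all genes tested. SEs of log2 fold changes are their sizes over the root of F. Folds against a group at 0 counts are lower bounds that use 3 counts over the group. Ranges and SDs are over libraries, and these libraries agree less closely than counting noise allows (chi-square between replicates of 3.15 to 69.4 times its degrees of freedom), so no library was counted as a duplicate. DESeq2 1.42.0, limma 3.58.1 on log2(TPM + 1) or log2(TPM + 0.1), other filters, only 2 groups in the fit, a replicate block, summed copies and leaving out each library were alternatives. The scripts were tested on simulated data. Members and lists were chosen with earlier results of these data known. Named are called members, the 3 most abundant and the most changed members of each cosmid, copies of called genes and members at 0 in all libraries; others were named after their values were seen.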

Additional observations from a re-analysis of the deposited data

How the results depend on the processing

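For SPAC750.01, summing its counts with those of SPAC977.14c turned the direction in wt_WT against ntu_WT (-0.03) and in ntu2_KO against wt_WT (0.07), both when copies among members and when copies over all genes were summed. The second of these was chosen after seeing the data. These sums are in effect the value of SPAC977.14c, by far the more abundant gene, and do not test SPAC750.01, which also holds for the counts with copies summed. The member counts moved as follows. Higher members in ntu2_KO against ntu_WT (1 in the report) became 2 with DESeq2, and 0 with no low-count filter or with only these groups fitted. Lower members there (0) became 1 with no filter or a CPM filter. Lower members in wt_WT against ntu_WT (0) became 4 with no filter, 2 with a CPM filter, and 1 with limma without a TPM filter or with only these groups fitted. Higher members in ntu1_KO against wt_WT (1) became 2 with no filter, and 0 with limma on log2(TPM + 0.1) or member copies summed, and lower ones (0) became 1 with DESeq2. Lower members in ntu2_KO against wt_WT (1) became 2 with DESeq2, with each limma fit and with only these groups fitted, and 0 with copies summed either way, while higher ones (0) became 1 with copies over all genes summed. With copies summed, a family counts as 1 member, together with its genes outside the set. Summed over its 3 genes, the family of SPAC212.06c had 4.83 TPM in ntu2_KO and 1.40 TPM in wt_WT. The member SPAC212.06c itself had 0.979 TPM in ntu2_KO and 1.24 TPM in wt_WT. Higher members in ntu1_KO against ntu2_KO (1) became 0 with copies summed either way. The 3 higher members in ntu1_KO against ntu_WT were 4 with DESeq2 or only these groups, and 2 with each limma fit or copies summed. The 5 higher in wt_WT against ntu_WT were 7 with each limma fit or only these groups, 6 with no filter and 4 with copies summed. The cause of these moves was not tested, beyond the larger number of low genes that a looser filter tests.

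Leaving out 1 library at a time gave 1 to 2 higher members in ntu1_KO against ntu_WT, 0 to 2 in ntu2_KO against ntu_WT and 3 to 5 in wt_WT against ntu_WT. Lower members were 0 to 1 in wt_WT against ntu_WT, 0 to 1 in ntu1_KO against wt_WT and 1 to 2 in ntu2_KO against wt_WT, and the remaining counts did not move. The replicate numbers do not pair the libraries: deviations of same-numbered libraries correlated between -0.16 and 0.10 in 18 pairs, 0 of them over 0.1. A fit with the replicate block gave 0 higher members in ntu2_KO against ntu_WT, lost gdt1 in both knockouts against ntu_WT, gained SPAC186.06 in ntu1_KO against ntu_WT and left the other member counts as they were. Depth limits the members at few counts, 33 of which could not be tested.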
